A study of Mus musculus with 6 samples.

Results

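Both arms of miR-210, miR-132 and miR-212 were followed in cultured marrow progenitor cells of diabetic and control mice. They are 6 of the 1900 mouse miRNA probes on the array and were picked by name, as the arms of these 3 hairpins, and not by their signal. The db/db cells came from male adult mice that carry 2 copies of the leptin receptor mutation and become obese and diabetic, and the db/+ cells from control littermates with 1 copy. There were 3 arrays of db/db cells and 3 of db/+ cells, each with 1 Cy5-labelled RNA sample. Mononuclear marrow cells had spent 4 days in an endothelial growth medium, lost their non-adherent cells in a wash, and spent 3 more days in culture. These are bulk samples of adherent marrow cells, so fewer cells of a type and less RNA per cell cannot be told apart. The labels do not say whether each sample came from its own animal, and the p-values below measure the spread between these samples.

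MicroRNAs are short RNAs that guide Argonaute proteins to messenger RNAs and lower their output, and bases 2 to 8, the seed, carry most of the pairing. The best known miRNA induced by low oxygen is miR-210, a target gene of the hypoxia-inducible factors that promotes endothelial tube formation and lowers mitochondrial respiration. The transcription factor CREB induces miR-132 and miR-212 from a shared primary transcript. In endothelial cells miR-132 represses the Ras GTPase-activating protein p120RasGAP and promotes vessel sprouting, and in neurons and macrophages it responds to activity and to inflammatory signals.

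The mature sequences are shown because arms of different hairpins share a seed. Each is the array's target sequence, 5′ to 3′, identical to the RefSeq mature sequence for all 6 probes, with the seed in capitals and mmu for the mouse.

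mmu-miR-210-3p: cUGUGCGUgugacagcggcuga

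mmu-miR-210-5p: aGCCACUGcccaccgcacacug

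mmu-miR-132-3p: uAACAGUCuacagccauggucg

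mmu-miR-212-3p: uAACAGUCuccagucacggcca

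mmu-miR-132-5p: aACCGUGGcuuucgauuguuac

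mmu-miR-212-5p: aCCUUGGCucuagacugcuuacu

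The 3p arms of miR-132 and miR-212 had the same seed, and no other probe on the array carried it. Counted from the 5′ end, they were identical at 17 of 22 positions, the first 9 included. The 5 differences, with the base of miR-132-3p first, were A10C, C14U, U17C, U20C and G22A. They were each other's nearest sequence on the array by position, and how far either RNA binds the other's probe was not tested. The 5p arms differed more, with 9 of 22 positions identical and different seeds. The seeds of miR-210-3p and miR-210-5p were on no other probe.

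The hairpins are shown to place both arms, in capitals, in their precursor. The sequences and coordinates are those of RefSeq on GRCm38.p6.

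Mir210: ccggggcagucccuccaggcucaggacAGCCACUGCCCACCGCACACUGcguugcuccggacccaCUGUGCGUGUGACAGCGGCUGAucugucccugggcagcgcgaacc

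Mir212: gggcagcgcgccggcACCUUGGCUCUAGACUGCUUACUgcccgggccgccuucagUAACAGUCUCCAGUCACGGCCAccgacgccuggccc

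Mir132: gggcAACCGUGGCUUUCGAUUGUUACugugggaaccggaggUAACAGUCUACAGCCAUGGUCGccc

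Mir210 lies at chr7:141221384-141221493 on the minus strand, between the genes Rassf7 and Gm51460. Mir212 lies at chr11:75173388-75173478 and Mir132 at chr11:75173682-75173747, both on the plus strand and 203 bases apart, between Hic1 and Ovca2. None of the hairpins overlapped another gene of the RefSeq table, and so none was exonic or intronic there.

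The first question was which arms could be read above the array's blank spots. Each probe had 2 spots, and each array had 4 blank spots whose median lay between 39.1 and 97.2 scanner units. A probe counted as above the blanks where its mean signal exceeded their 95th percentile, which 751 to 1855 probes did on the db/db arrays and 971 to 1701 on the db/+ arrays. Both arms of miR-210 and miR-132-3p were above the blanks on all 6 arrays, as were 671 of the 1900 probes. The other 3 arms were not. The miR-212-3p probe was above them on 2 of 3 db/db arrays and on 3 of 3 db/+ arrays, and miR-132-5p and miR-212-5p were above them on 1 db/db array and 2 db/+ arrays each. None of the 6 was far above: the highest reading of any was 3.96 times the blank median of its array.

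The major arm of miR-210, miR-210-3p, read 89.3, 127.1 and 108.8 scanner units on db/db arrays 1, 2 and 3, against 174.1, 121.2 and 52.0 on db/+ arrays 1, 2 and 3. As multiples of the blank median these were 2.03, 2.25 and 1.49 in db/db cells, against 1.79, 1.90 and 1.33 in db/+ cells. The groups overlapped, and db/+ replicate 3 was the lowest array on both scales. The opposite arm, miR-210-5p, read 1.92, 1.64 and 1.38 times the blank median in db/db cells, against 1.83, 1.83 and 1.26 in db/+ cells. Its groups overlapped too, with db/+ replicate 3 again the lowest.

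For miR-132-3p, the arm known from sprouting endothelium, the readings were 95.2, 223.6 and 84.0 scanner units on the db/db arrays, against 306.2, 216.3 and 69.3 on the db/+ arrays. They came to 2.16, 3.96 and 1.15 times the blank median in db/db cells, against 3.15, 3.38 and 1.77 in db/+ cells. The db/db group held both the highest and the lowest of the 6 multiples, so its range covered that of db/+ cells. The partner with the same seed, miR-212-3p, read 1.60, 1.72 and 0.975 times the blank median in db/db cells, against 1.60, 1.71 and 1.34 in db/+ cells. Here db/db replicate 3 was at the level of its blanks and the groups overlapped. Only on that array was the blank median, 73.0 units, above the median miRNA probe, 65.7 units. The miR-212-3p probe, at 71.2 units, was above that median probe. The multiples of all probes on that array, that of miR-132-3p included, are taken against this high blank level.

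The minor 5p arms of miR-132 and miR-212 were close to the blanks, and above them on db/db replicate 1 and on db/+ replicates 2 and 3. On db/db replicate 1 and db/+ replicate 3 most probes were above the blanks, 1855 and 1701 of 1900. The median miRNA probe read 67.6 and 49.5 units on these arrays. Both 5p arms were below it, miR-132-5p at 59.3 and 46.7 units and miR-212-5p at 56.4 and 44.1. The miR-132-5p probe read 1.35, 0.978 and 0.735 times the blank median in db/db cells, against 1.02, 1.11 and 1.19 in db/+ cells. For miR-212-5p the multiples were 1.28, 1.00 and 0.745 in db/db cells, against 0.971, 1.09 and 1.13 in db/+ cells. The blank spots of db/db replicate 3 spread most, between 42.2 and 80.2 units, and both 5p arms were inside that range on that array.

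The 2 spots of a probe show the error within an array. The brighter spot read a median of 1.08 times the dimmer one for miR-210-3p, 1.07 times for miR-210-5p and 1.09 times for miR-132-3p over the 6 arrays. The spread was wider for miR-212-3p, with a median of 1.22 and a highest value of 1.46 on db/+ replicate 1, where the spots read 184.7 and 126.2. On db/db replicate 2 the spots of miR-212-3p read 110.5 and 84.1.

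**Figure D1:**
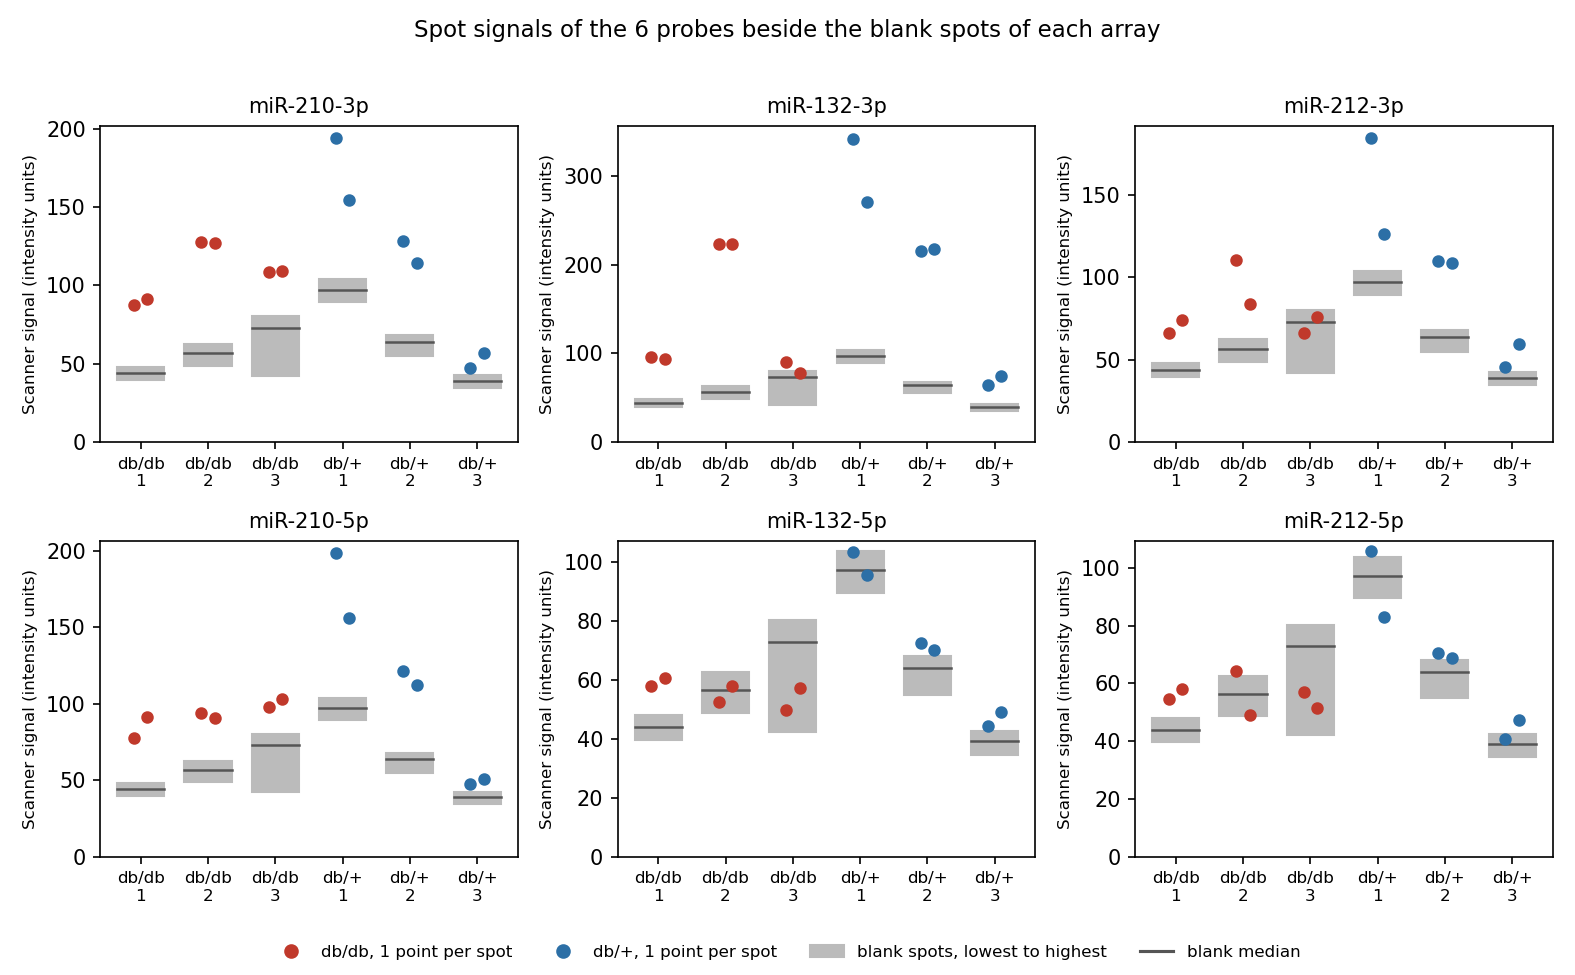
Scanner signal in intensity units (y axes, each from 0) of both spots of the 6 probes on db/db arrays 1 to 3 and db/+ arrays 1 to 3 (x axes), with the lowest-to-highest range and the median of the 4 blank spots of each array in grey. The points of miR-132-5p and miR-212-5p lie in or near the grey ranges, and miR-132-3p stands clearest above them on db/db replicate 2 and on db/+ replicates 1 and 2.

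The second question was whether db/db cells differed from db/+ cells. No arm passed. Signals were background-corrected, brought to the same distribution on every array and put on the log2 scale with an added offset of 50 units, and groups were compared with limma over all 1181 probes above the blanks on at least 3 of 6 arrays, which all 6 arms were. Of the 6 arms 0 had a Benjamini-Hochberg adjusted p under 0.05, where 0% of all tested probes had one. At an unadjusted p under 0.05 there were 0 of 6 arms, and 5% of all tested probes. For 0 of the 6 the groups lay apart without overlap, against 9.65% of all tested probes: 5.59% lay wholly lower and 4.06% wholly higher in db/db cells. The sign of the difference was negative for 3 of the 6, and for 54.4% of all tested probes.

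Normalized log2 levels of miR-210-3p were 6.78, 7.12 and 6.89 on db/db arrays 1, 2 and 3, against 6.94, 6.91 and 6.45 on the db/+ arrays. The group means were 6.93 ± 0.17 in db/db cells and 6.77 ± 0.28 in db/+ cells (SD, n = 3 each). The log2 difference, db/db minus db/+, was 0.16 (SE 0.18, limma adjusted p = 0.914), a fold of 1.12 on this offset scale. Its 95% interval was -0.26 to 0.58. Without db/+ replicate 3 it was 0.0021.

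The other arm gave miR-210-5p levels of 6.70, 6.81 and 6.80 in db/db cells, against 6.96, 6.87 and 6.33 in db/+ cells. All 3 db/db values lay inside the span of the db/+ values. The log2 difference was 0.05 (SE 0.19, limma adjusted p = 0.965), and its 95% interval was -0.39 to 0.49. It was -0.16 without db/+ replicate 3.

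Among the 6 arms miR-132-3p had the largest difference and the widest error. Its levels were 6.88, 7.77 and 6.60 in db/db cells, against 7.64, 7.61 and 7.12 in db/+ cells. The means were 7.08 ± 0.61 in db/db cells and 7.46 ± 0.29 in db/+ cells (SD, n = 3 each). On db/db replicate 2 the level was above all 3 db/+ values, and on db/db replicates 1 and 3 it was below all 3. The log2 difference was -0.38 (SE 0.32, limma adjusted p = 0.892), and its 95% interval, -1.12 to 0.37, ran from 0.459 to 1.29 as a fold. Of all tested probes 12.4% had a larger absolute difference. Without db/db replicate 2 it was -0.70, with an unadjusted p of 0.0156 (limma adjusted p = 0.541). It was -0.13 without db/db replicate 3 and -0.59 without db/+ replicate 3.

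Its locus partner miR-212-3p had levels of 6.42, 6.86 and 6.42 in db/db cells, against 6.80, 6.79 and 6.47 in db/+ cells. As for miR-132-3p, db/db replicate 2 was the highest of the 6 arrays and the other db/db arrays were the lowest. The log2 difference was -0.12 (SE 0.17, limma adjusted p = 0.918), and the 95% interval was -0.53 to 0.29. Leaving out db/db replicate 2 gave -0.25, as did leaving out db/+ replicate 3. Leaving out db/db replicate 1 or db/db replicate 3 gave -0.048.

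The 5p arms of miR-132 and miR-212 gave differences near 0 from readings close to the blanks. The miR-132-5p level was 6.23 ± 0.08 in db/db cells and 6.27 ± 0.06 in db/+ cells (SD, n = 3 each), a log2 difference of -0.044 with a 95% interval of -0.31 to 0.23. For miR-212-5p it was 6.22 ± 0.10 in db/db cells and 6.20 ± 0.09 in db/+ cells (SD, n = 3 each), a log2 difference of 0.014 with a 95% interval of -0.28 to 0.30. Leaving out db/db replicate 2 gave -0.044 for miR-212-5p, and leaving out db/+ replicate 3 gave -0.040. The limma adjusted p was 0.958 for miR-132-5p and 0.985 for miR-212-5p. These narrow intervals belong to the offset scale, on which readings close to the blanks have little room to vary.

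**Figure D2:**
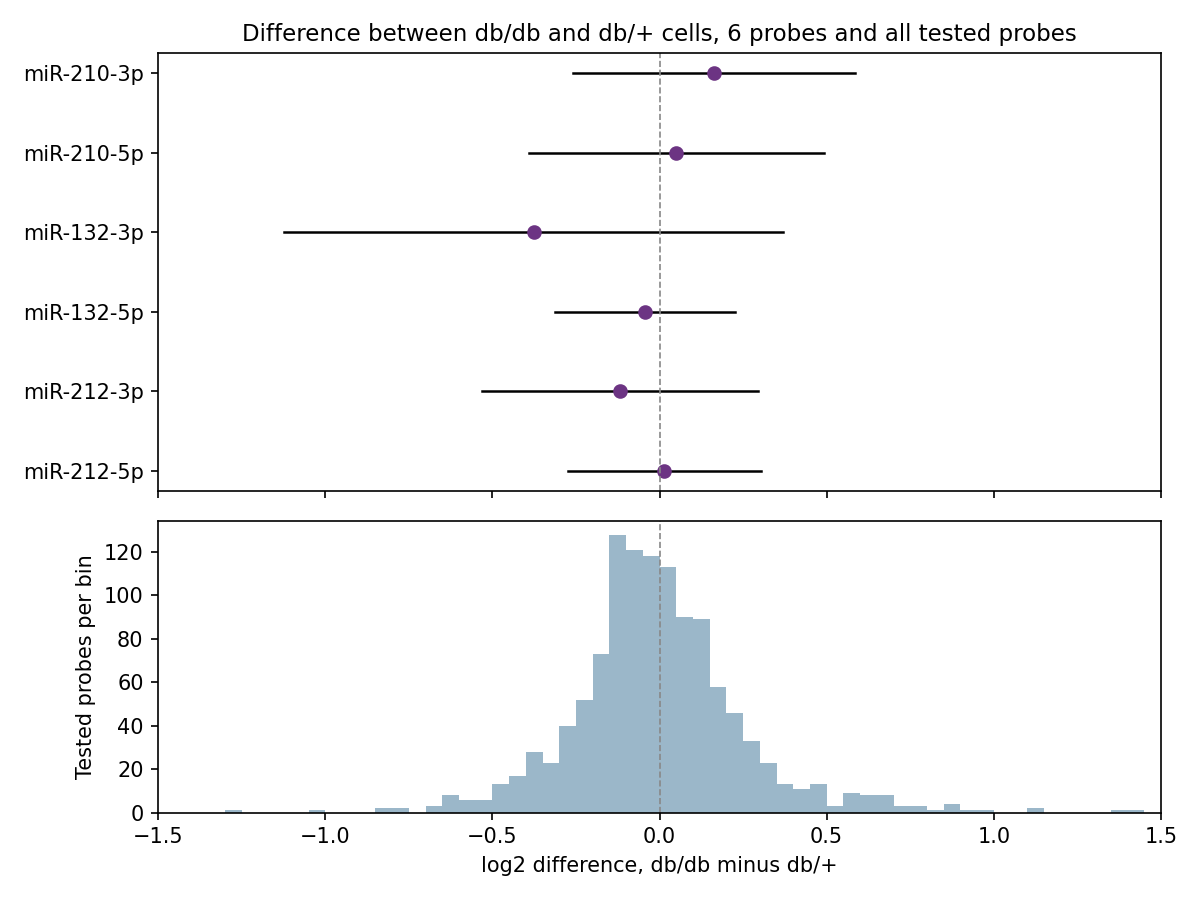
Upper panel, log2 difference (db/db minus db/+) of each of the 6 probes as a point with its 95% interval. The lower panel counts all 1181 tested probes by the same difference in bins of 0.05, with 5 probes beyond the plotted range. All 6 intervals include 0, and the widest is that of miR-132-3p, from -1.12 to 0.37.

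The offset compresses differences of dim probes. With the blank median subtracted instead, the log2 difference was 0.81 for miR-210-3p, 0.66 for miR-210-5p, -0.97 for miR-132-3p and -0.88 for miR-212-3p. Their standard errors were 0.73, 0.89, 0.74 and 0.91 there. The miR-132-5p difference was -0.33 (SE 0.41) and that of miR-212-5p -0.053 (SE 0.50), and no arm passed. In the authors' deposited value table miR-210-3p stood at 41.9, 71.8 and 48.7 in db/db cells, against 53.2, 52.1 and 20.5 in db/+ cells. In the same table miR-132-3p stood at 51.8, 150.5 and 30.1 in db/db cells, against 128.5, 123.9 and 76.7 in db/+ cells. The groups of all 6 arms overlapped in that table too. The limma log2 difference from it, with 16 added, was 0.31 for miR-210-3p and -0.62 for miR-132-3p, with adjusted p of 0.91 and 0.90.

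With quantile normalization all 6 arms followed a split of the arrays that crossed the groups, and how many did depended on the scaling. The perfect-match spike control PUC2PM-20B, a synthetic sequence unrelated to the cells, read 34206 units on db/db replicate 2 and 38465 and 37309 on db/+ replicates 1 and 2. It read 18562 and 13390 on db/db replicates 1 and 3 and 15252 on db/+ replicate 3. A second spike, a3-PUC2PM-20B, split the same arrays, at 32277 to 46611 units on the bright arrays and 7059 to 12441 on the dim ones. This split was known from earlier results of these data. Each of the 6 arms had its 3 highest normalized levels on the spike-bright arrays, whereas 12.9% of all tested probes did. The reverse, all 3 lowest there, held for 0 of the 6 and for 7.71% of all tested probes. The miR-210 arms met the split only narrowly. For miR-210-3p the lowest bright level was 6.91 and the highest dim level 6.89, and for miR-210-5p they were 6.81 and 6.80. For miR-212-5p they were 6.23 and 6.19. As multiples of the blank median, the miR-210 arms, miR-132-5p and miR-212-5p did not follow the split. On the dim arrays miR-132-5p read 1.35, 0.735 and 1.19 times, against 0.978, 1.02 and 1.11 on the bright ones. The miR-212-5p multiples were 1.28, 0.745 and 1.13 on the dim arrays, against 1.00, 0.971 and 1.09.

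The gap was widest for the 3p arms with the shared seed. The miR-132-3p level was 7.61 to 7.77 on the spike-bright arrays and 6.60 to 7.12 on the dim ones, and miR-212-3p was 6.79 to 6.86 on the bright and 6.42 to 6.47 on the dim ones. With cyclic loess 5 of the 6 arms were wholly higher on the bright arrays, against 10.6% of all tested probes, and 5 of 6 were in the authors' deposited table, against 11.4%. With 75th percentile scaling 1 of 6 was, against 12.1%, which is near the share of all probes. With the split as a block the log2 difference was -0.12 (SE 0.17) for miR-132-3p and 0.0082 (SE 0.12) for miR-212-3p, so the sign of miR-212-3p turned. For miR-210-3p the blocked difference was 0.29 (SE 0.12), with an unadjusted p of 0.057 (limma adjusted p = 0.728).

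Within the spike-bright set, which holds 1 db/db and 2 db/+ arrays, the db/db minus db/+ difference was 0.19 for miR-210-3p, -0.10 for miR-210-5p, 0.14 for miR-132-3p, 0.012 for miR-132-5p, 0.06 for miR-212-3p and 0.08 for miR-212-5p. Within the dim set, with 2 db/db arrays and 1 db/+ array, it was 0.39 for miR-210-3p, 0.42 for miR-210-5p, -0.39 for miR-132-3p, -0.024 for miR-132-5p, -0.046 for miR-212-3p and 0.06 for miR-212-5p. The sign differed between the sets for 4 arms, from both loci, and was the same for miR-210-3p and miR-212-5p. Each of these values rests on an arm of 1 array.

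**Figure D3:**
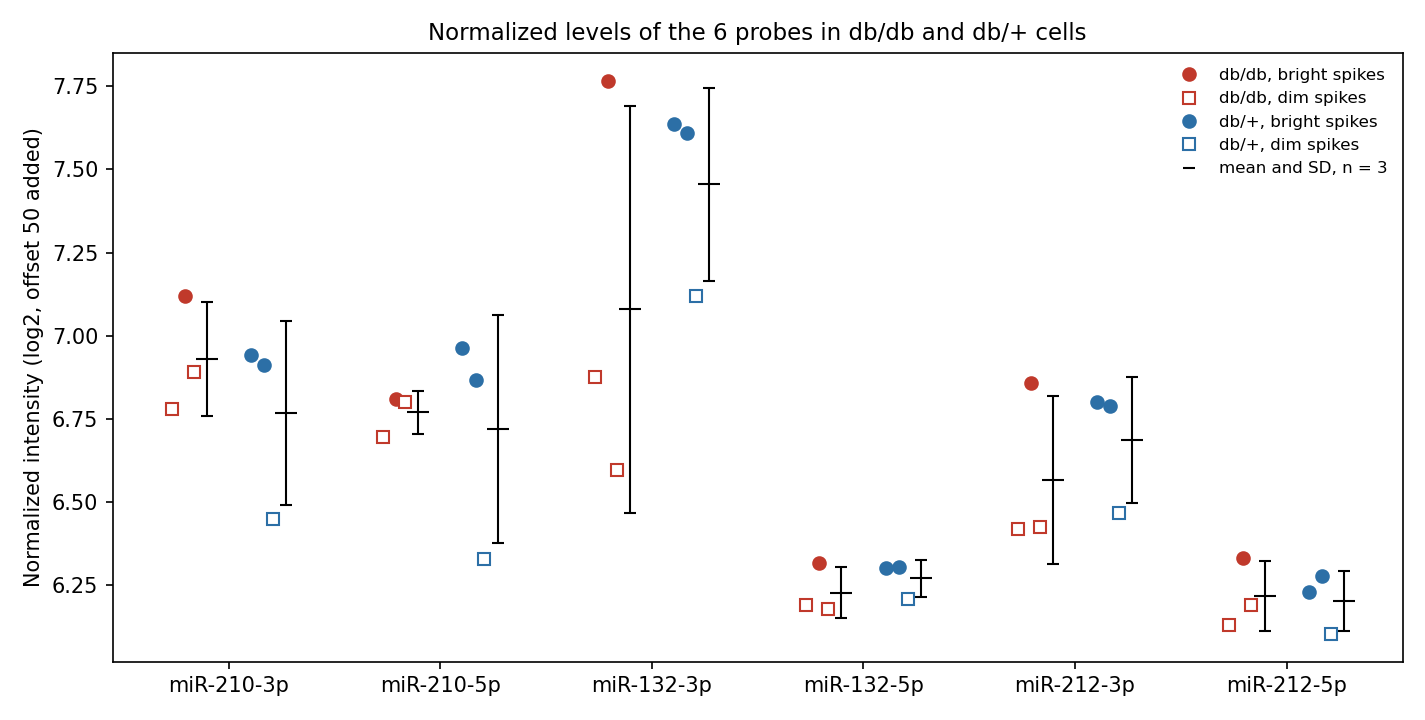
Normalized intensity (log2, y axis) of the 6 probes (x axis) on each db/db and db/+ array, with the group mean and SD beside the points (n = 3). Filled circles are arrays with bright spike controls and open squares arrays with dim ones. For miR-132-3p the filled circles lie at 7.61 to 7.77 and the squares at 6.60 to 7.12 in both genotypes.

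To see which other miRNAs had like profiles, each arm above the blanks on all 6 arrays was set against the other 670 such probes. Likeness was the root mean square difference of log2 levels over the 6 arrays, each probe centred on its own mean. The nearest to miR-132-3p were miR-34c-3p, miR-184-5p and miR-125a-5p, at 0.13, 0.15 and 0.17, where the median probe was at 0.48. Their log2 differences between db/db and db/+ cells were -0.33, -0.32 and -0.26, and none passed. Being picked for profiles like that of miR-132-3p on these arrays, they have differences near its own by that choice. For miR-210-3p the nearest were miR-6925-5p, miR-466q and miR-7018-5p, at 0.059, 0.063 and 0.069 with a median of 0.33 over the probes, and its own other arm ranked 7th at 0.10. The nearest to miR-210-5p were miR-6538, miR-187-5p and miR-669a-3p, at 0.086, 0.088 and 0.090. Between the partners miR-132-3p and miR-212-3p the distance was 0.26. Arrays and their scaling are shared by all probes, and with 6 arrays these likenesses are a description.

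The related miRNAs that other work links to low oxygen, vessel growth or CREB gave 0 passing probes in either direction with limma. Of 30 tested probes of hypoxia-linked miRNAs, 18 had a difference below 0 and 12 above, with a median of -0.06. Of all tested probes 54.4% were below 0, with a median of -0.02, and 2 of the 30 were the miR-210 arms. The smallest p in that list was that of miR-192-5p, known from p53 responses, at 6.88 ± 0.10 in db/db cells and 7.31 ± 0.24 in db/+ cells (SD, n = 3 each) and a limma adjusted p of 0.89. Of 35 tested pro-angiogenic probes 23 were below 0 and 12 above, with a median of -0.10, and 4 of the 35 were arms followed here. Among them miR-130a-3p, known to repress the antiangiogenic homeobox genes GAX and HOXA5, had the smallest p, with a log2 difference of -0.52 and a limma adjusted p of 0.89.

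Of 27 tested anti-angiogenic probes 20 were below 0 and 7 above, with a median of -0.09. There miR-92a-3p, known to restrain vessel growth in endothelium, had a log2 difference of -0.84 and a limma adjusted p of 0.74. Of 10 tested probes of CREB-linked or neuronal activity miRNAs 8 were below 0 and 2 above, with a median of -0.07, and 4 of these 10 were the miR-132 and miR-212 arms themselves. The smallest p outside them was that of miR-134-5p, a dendritic miRNA of neurons, at a log2 difference of -0.20 (limma adjusted p = 0.909). Of 8 tested probes of inflammation-linked miRNAs 5 were below 0 and 3 above, with a median of -0.26. Its smallest p was that of miR-146a-5p, which NF-kB induces in macrophages, at 8.29 ± 0.18 in db/db cells and 8.72 ± 0.24 in db/+ cells (SD, n = 3 each) and a limma adjusted p of 0.89.

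Marker miRNAs were read to see what the cultures held. Of 22 marker probes 11 were above the blanks on all 6 arrays, against 671 of all 1900 probes. The endothelial miR-126a-3p read 15.6 to 35.7 times the blank median in db/db cells and 19.9 to 28.7 times in db/+ cells, while its other arm stayed near the blanks. The myeloid miR-223-3p read 178.6 to 254.5 times the blank median in db/db cells and 96.1 to 282.0 times in db/+ cells. The 4 stromal markers, summed, read 90.9 to 249.4 times in db/db cells and 162.6 to 239.6 times in db/+ cells. As multiples of the blank median the groups overlapped for all of these markers. On the normalized log2 scale the stromal miR-214-3p lay wholly lower in db/db cells, and the other stromal markers, miR-126a-3p and miR-223-3p overlapped. The stromal log2 differences were -0.70 for miR-199a-3p, -0.61 for miR-214-3p, -0.44 for miR-143-3p and -0.28 for miR-145a-5p. They were -0.33 for miR-126a-3p and 0.56 for miR-223-3p, and none of these passed (limma adjusted p = 0.89 each). The erythroid miR-451a read 3.99 to 25.8 times the blank median over the 6 arrays, with its partner miR-144-3p at no more than 1.15 times. The lymphoid miR-150-5p read 0.698 to 1.29 times and was above the blanks on 3 arrays. The muscle miR-206-3p read 2.83 to 6.95 times, while miR-1a-3p was above the blanks on none of the arrays. The muscle miR-133a-3p, at 0.927 to 1.48 times, was above them on 4 arrays. The epithelial markers read at most 1.60 times and the liver marker miR-122-5p at most 1.23 times. Marker miRNAs of more than 1 cell type were thus above the blanks on all 6 arrays. Of the neuronal markers miR-124-3p and miR-9-5p were above the blanks on 2 arrays each, at no more than 1.23 and 1.44 times, and the widely expressed miR-128-3p read 2.13 to 4.78 times. The summed blood cell markers miR-142a-3p and miR-142a-5p read 22.9 to 40.9 times in db/db cells and 8.34 to 25.9 times in db/+ cells. The part of these cell types in the miR-210, miR-132 and miR-212 readings was not tested.

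**Figure D4:**
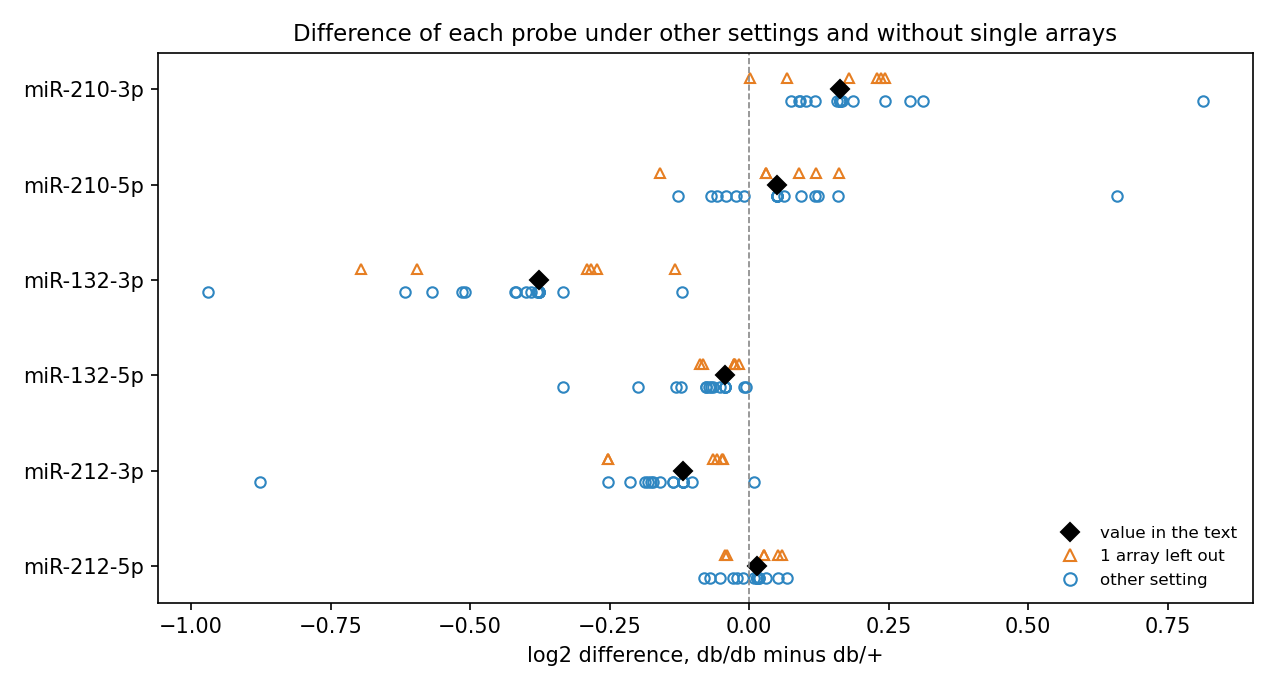
Log2 difference (db/db minus db/+, x axis) of each of the 6 probes as given in the text (diamonds), with 1 array left out (triangles) and under the other settings (circles). The circles farthest from 0 are those with the blank median subtracted, at 0.81 for miR-210-3p and -0.97 for miR-132-3p, and the values of miR-210-5p and miR-212-5p fall on both sides of 0.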

How the data were processed

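Total RNA, 1 µg a sample, was tailed, tagged and stained with Cy5 for a service provider's miRNA array, per the labels' protocols. The deposited scanner files give a median intensity per spot with no local background, per the file headers. A separate deposited table gives 1 intensity per probe as processed by the authors, linear in scale, with column medians of 12.2 to 14.8. Its background correction, scaling and centring are unknown here.

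Spots were corrected with normexp (offset 50), quantile-normalized over all miRNA spots, converted to log2 and averaged over the 2 spots of each probe. Probes above the 95th percentile of 4 blanks on at least 3 of 6 arrays were tested with limma 3.58.1 in R 4.3.3 (lmFit, eBayes, Benjamini-Hochberg at 0.05 over 1181 probes). The steps were tested on simulated data, with changes set only in probes whose mean signal was over 2 times the blank median. Most readings of the 6 arms were below that level, so recovery of changes in probes that dim was not tested. Spot pairs correlated at 0.983 to 0.989 on each array. The number of arrays limits precision.

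The members, lists, markers and settings were chosen with earlier results of these data known. Named beside the 6 arms are the 3 most alike probes of each arm above the blanks on all arrays, probes sharing a seed, and the probe of smallest p in each list outside the 6 arms. Other settings covered background, offset, normalization, the authors' table, single spots, filters, the variance model, array weights, arrays left out and blocks. Sequences are from the array files and RefSeq. Figures used matplotlib 3.10.9 in Python 3.11.15.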

Additional observations from a re-analysis of the deposited data

Results flagged for a closer look

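Outside the miRNA probes, 2 of 24 control probes had all 3 db/db readings above all 3 db/+ readings after scaling to the 75th percentile of the miRNA spots. These were the mismatch spikes a-PUC2MM2d, by 0.88 on the log2 scale, and a3-PUC2MM-20B, by 0.67. Control probes wholly lower in db/db cells were not looked for. Of all tested miRNA probes 4.06% lay wholly higher in db/db cells after quantile normalization. Groups of 3 arrays were too small to look for single outlying arrays.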

How the results depend on the processing

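No arm passed under any of the 23 other settings, where the smallest limma adjusted p of any arm was 0.54, for miR-132-3p without db/db replicate 2. The difference of miR-210-3p stayed above 0 and that of miR-132-3p below 0 in all 23, and that of miR-132-5p below 0 in all 22 that tested it. The miR-210-5p difference reversed to -0.069 with 75th percentile scaling, -0.041 with cyclic loess, -0.058 with no normalization, -0.023 with the first spot only, -0.0094 with array weights and -0.13 without db/db replicate 1 and db/+ replicate 3 together. The miR-212-5p difference reversed to -0.080, -0.011, -0.070 and -0.030 with the same scaling, loess, no normalization and weights, to -0.053 with blank subtraction and to -0.023 with the last spot only. The spike split as a block, added after seeing the data, turned miR-212-3p to 0.0082. With 1 array left out, miR-210-5p ranged from -0.16 to 0.16 and miR-212-5p from -0.044 to 0.059. The causes of these reversals were not tested. Over all probes 0 passed, against 1 with 75th percentile scaling, an offset of 16, the authors' value table, the first spot only or probes detected on all 6 arrays, 2 with a trended robust variance, and 0 to 3 without single arrays; none of them was an arm followed here. Of 36 readings of the arms 29 were above the blanks, and 6 were above 2 times the blank median. Of all 1900 probes 751 to 1855 were above the blanks on single arrays, and the share above 2 times the blank median was not counted. With the replicate number as a block the differences were the same, 0 probes passed, and the smallest limma adjusted p of any arm was 0.94. Same-numbered arrays did not deviate together, with correlations of -0.043, -0.0029 and 0.037. For differently numbered db/db and db/+ arrays the correlations ran from -0.36 to 0.37, highest for db/db replicate 1 with db/+ replicate 3. No slide or scan is named in the files, so that block was not run. Signal close to the blanks limits what can be read for miR-132-5p, miR-212-3p and miR-212-5p. The miR-210 arms were dim as well, at 1.33 to 2.25 times the blank median for miR-210-3p and 1.26 to 1.92 times for miR-210-5p.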
